A study of Mus musculus with 8 samples.

Results

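The 46 genes described here encode proteins of DNA replication and cell division. They were taken from the deposited table of 22063 genes by exact match of the gene symbol to a given list. All 46 were found and all passed the filter on low counts, 17 of them S-phase genes and 29 genes of G2 and mitosis (G2/M genes). Aortas of male C57BL/6J mice, 3 weeks old at the start and fed chow, were profiled by RNA sequencing in 8 libraries. Every mouse drank beta-aminopropionitrile (BAPN, 1 g per kg per day) over 3 weeks. BAPN blocks lysyl oxidase and so keeps new elastin and collagen fibres from being crosslinked, which leads to dissection of the aorta in growing mice. In those weeks 4 mice or pools of mice (colchicine 1 to 4) received colchicine by gavage at 200 µg per kg per day, and 4 (vehicle 1 to 4) received saline. The labels do not say whether each library came from 1 animal, so p-values measure the spread between libraries, and aortas of untreated mice, without BAPN, were not analysed here.

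A dividing cell copies its DNA in S phase and parts the copies in mitosis. Transcription factors of the E2F family switch on replication genes as S phase approaches, and the mitotic genes follow later through promoter elements known as the CHR (cell cycle genes homology region) and the CCAAT box. Colchicine binds tubulin and stops microtubules from assembling, so that dividing cells can be held in mitosis by the spindle assembly checkpoint with the mitotic cyclin-kinase pair still active. Cells held in that way would add transcripts of the G2/M genes to a bulk sample relative to those of S phase. The comparison of colchicine with vehicle therefore asked whether G2/M genes were higher, alone or relative to S-phase genes. The smooth muscle cells that make up most of the aortic media divide rarely in the adult wall and more often in young, growing or injured vessels.

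The promoters of the members differed by phase in the short motifs they held. Promoters of 300 bases, from 250 before to 50 after the transcription start, were available from RefSeq (GRCm38.p6) for 14 of the 17 S-phase genes and 26 of the 29 G2/M genes. The CHR (TTTGAA or TTCGAA on either strand) was present in 21 of 26 G2/M promoters (80.8%) and 2 of 14 S-phase promoters (14.3%), against 13.8% of the promoters of tested genes and 19.4% of all promoters of this length. A CCAAT box (CCAAT on either strand) was present in 84.6% of G2/M and 57.1% of S-phase promoters, against 38.5% for tested genes. Both motifs stood together in 20 G2/M promoters (76.9%), against 5.81% for tested genes. E2F-type motifs (the letters TTCCCGC in 1 form, TTCGCGC in another and TTGGCGC in the last, on either strand) were in 7 S-phase promoters (50%) and 6 G2/M promoters (23.1%), against 14.4% for tested genes. A match describes these letters in this window and is not a measured binding site.

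Of the promoters printed here, Mcm3 and Cdt1 belong to S-phase genes that were lower in colchicine libraries. Cdk1 and Cdc20 belong to G2/M genes of mitotic entry and exit that hold both mitotic motifs, and Anln to the G2/M gene that was higher. E2F-type motifs were in 2 of 4 lowered and 5 of 10 other S-phase promoters (50% each). Mcm2 and Tyms, lowered and not printed, held none, though Mcm2 held a CHR and a CCAAT box. Each printed promoter runs 5′ to 3′ on the strand of its gene, and capitals mark E2F-type, CHR and CCAAT matches. The Mcm3 promoter (chr1:20820263-20820562, minus strand) holds overlapping E2F-type matches on both strands near its end and 3 CCAAT boxes.
Mcm3: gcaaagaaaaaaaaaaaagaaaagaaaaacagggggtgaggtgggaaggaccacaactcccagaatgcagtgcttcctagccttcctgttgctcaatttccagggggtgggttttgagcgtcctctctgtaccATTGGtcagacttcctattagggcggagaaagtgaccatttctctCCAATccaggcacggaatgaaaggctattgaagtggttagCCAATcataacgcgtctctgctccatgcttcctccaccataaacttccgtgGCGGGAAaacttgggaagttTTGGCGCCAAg
The Cdt1 promoter (chr8:122567765-122568064, plus strand) has 2 E2F-type matches after the start site and neither other motif.
Cdt1: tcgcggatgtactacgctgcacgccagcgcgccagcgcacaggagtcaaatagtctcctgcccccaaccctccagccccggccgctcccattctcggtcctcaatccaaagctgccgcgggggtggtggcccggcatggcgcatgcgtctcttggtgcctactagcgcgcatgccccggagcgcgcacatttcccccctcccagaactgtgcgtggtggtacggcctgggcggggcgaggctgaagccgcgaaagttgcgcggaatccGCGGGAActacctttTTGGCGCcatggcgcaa
The Cdk1 promoter (chr10:69352863-69353162, minus strand) has 2 CHR, 3 CCAAT and 2 E2F-type matches.
Cdk1: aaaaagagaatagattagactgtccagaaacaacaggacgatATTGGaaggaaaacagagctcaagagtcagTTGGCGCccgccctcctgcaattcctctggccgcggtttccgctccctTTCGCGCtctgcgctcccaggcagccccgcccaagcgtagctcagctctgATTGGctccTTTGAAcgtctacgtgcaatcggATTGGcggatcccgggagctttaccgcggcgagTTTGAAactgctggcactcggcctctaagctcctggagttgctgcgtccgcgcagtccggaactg
The Cdc20 promoter (chr4:118437294-118437593, minus strand) has its CHR at 18 bases before the start site, between 2 CCAAT boxes.
Cdc20: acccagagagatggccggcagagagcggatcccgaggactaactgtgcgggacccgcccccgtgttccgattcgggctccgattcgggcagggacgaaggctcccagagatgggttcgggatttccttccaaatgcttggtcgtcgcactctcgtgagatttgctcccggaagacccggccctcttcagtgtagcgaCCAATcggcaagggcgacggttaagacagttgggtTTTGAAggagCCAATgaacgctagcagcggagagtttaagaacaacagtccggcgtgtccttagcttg
The Anln promoter (chr9:22389157-22389456, minus strand) has 2 CHR matches, on opposite strands and 1 base apart, after the start site and no CCAAT box.
Anln: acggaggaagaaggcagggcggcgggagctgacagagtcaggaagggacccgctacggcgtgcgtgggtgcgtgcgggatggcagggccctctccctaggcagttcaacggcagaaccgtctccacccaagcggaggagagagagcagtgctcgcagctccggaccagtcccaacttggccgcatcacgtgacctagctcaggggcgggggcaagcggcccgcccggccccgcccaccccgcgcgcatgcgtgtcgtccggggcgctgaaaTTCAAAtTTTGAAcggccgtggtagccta

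Libraries held 15.4 to 18.5 M estimated counts. Levels are given as CPM, the count of a gene relative to the TMM-scaled total of its library, and a floor of 3 counts came to 0.158 to 0.22 CPM per library for counting error alone. The 4 haemoglobin genes took 14.9% of the counts in vehicle 1 and 6.21% in vehicle 4, against 0.0419 to 0.318% in the other 6 libraries. Mitochondrially encoded genes took 10.4% and 7.21% in vehicle 1 and vehicle 4, against 2.26 to 4.87% in the other 6. Smooth muscle markers were abundant throughout, with 7 markers summing to 6250 to 21500 CPM in vehicle and to 23139 to 31639 CPM in colchicine libraries. Over all genes, 4619 of 13431 (34.4%) passed the edgeR quasi-likelihood test at an adjusted p under 0.05, with 2342 raised (17.4%) and 2277 lowered (17.0%) in colchicine libraries, and the median log2 fold change was -0.03.

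A minority of the S-phase genes passed the test. Of the 17 S-phase genes 5 fell, 1 rose and 11 did not pass the test, where 17.0% of all genes fell and 17.4% rose. The 5 that fell were Mcm2, Mcm3, Tyms, Cdt1 and Gins2, and the one that rose was Ccne2. Log2 fold changes (colchicine minus vehicle) were below 0 for 15 of the 17, with a median of -0.93 against -0.03 over all genes. At an unadjusted p under 0.05, 8 were lower and 1 was higher. The 2 groups did not overlap for the same 6 genes, 5 lower (17.9% of all genes) and 1 higher (21.1%).

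**Figure D1:**
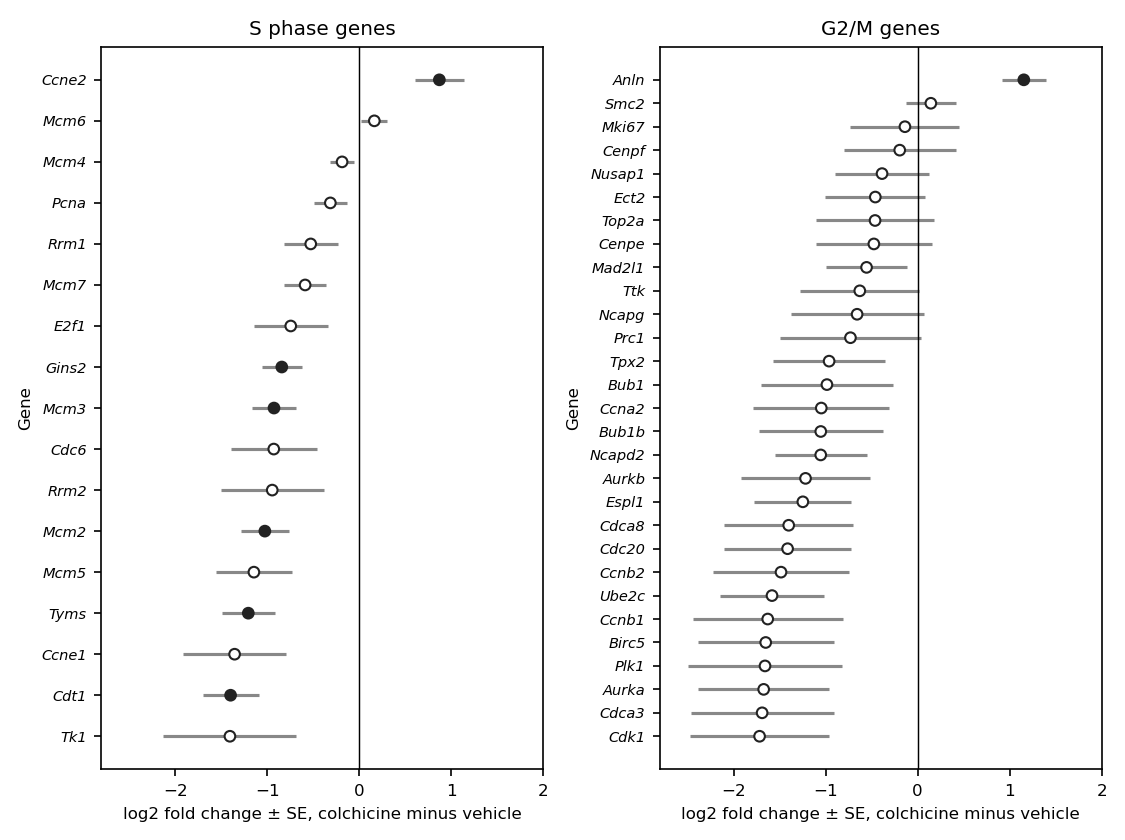
Log2 fold change (colchicine minus vehicle, horizontal axis) with its standard error for each of the 17 S-phase and 29 G2/M genes, with filled points for genes past an adjusted p of 0.05. Estimates lie left of 0 for 15 S-phase and 27 G2/M genes, but the G2/M error bars are wider (median SE 0.67 against 0.29) and in that panel Anln alone passed.

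Licensing factors load the MCM helicase onto DNA before S phase. Cdt1 (GRCm38 chromosome 8, 122568015 to 122573554), a loading factor, was at 8.95, 11.4, 7.89 and 7.62 CPM in vehicle 1 to 4 and at 2.15, 2.52, 3.72 and 5.20 CPM in colchicine 1 to 4. Every colchicine library was below every vehicle library, and the log2 fold change was -1.40 ± 0.30 (SE, adjusted p = 0.0109). Cdc6, which loads the helicase together with Cdt1, went from 4.87 ± 2.54 to 2.56 ± 1.19 CPM (SD, n = 4 each), a log2 difference of -0.93 ± 0.47 that did not pass (adjusted p = 0.149).

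The 6 MCM genes encode the subunits of one hexameric helicase and did not move alike. Mcm2 was at 28.1, 39.8, 24.7 and 20.7 CPM in vehicle and 9.51, 11.8, 15.6 and 18.7 CPM in colchicine libraries, with no overlap and a log2 fold change of -1.02 ± 0.26 (adjusted p = 0.0191). Mcm3 was at 36.6, 52.3, 31.0 and 25.4 CPM in vehicle and 17.3, 15.5, 19.4 and 24.3 CPM in colchicine libraries (-0.93 ± 0.24, adjusted p = 0.0191), and its groups were also apart, vehicle 4 and colchicine 4 being nearest to each other. Mcm5 (-1.14 ± 0.42, adjusted p = 0.0593) and Mcm7 (-0.59 ± 0.23, adjusted p = 0.071) did not pass. Mcm4 differed by -0.19 ± 0.13 and Mcm6 by 0.17 ± 0.14, with adjusted p-values of 0.283 and 0.382. Mcm6 had the highest level of the 6 at 77 ± 9.05 CPM in vehicle and at 86.3 ± 11.3 CPM under colchicine.

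Gins2, a subunit of the GINS complex that joins the MCM helicase at the fork, fell by 0.84 ± 0.21 on the log2 scale (adjusted p = 0.0182). It was at 25.5, 22.7, 17.4 and 22.3 CPM in vehicle and 10.7, 9.41, 11.7 and 17.2 CPM in colchicine libraries, and colchicine 4 and vehicle 3 nearly met. Pcna, the sliding clamp of the replicative polymerases, was at 103, 73.6, 58.8 and 66.1 CPM against 54.8, 59.4, 63.5 and 65.0 CPM, and its groups overlapped (-0.31 ± 0.18, adjusted p = 0.199). Vehicle 3 lay inside the colchicine range and vehicle 1 far above it.

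Among the enzymes that make deoxynucleotides, Tyms (thymidylate synthase) passed the test. Its level was 24.8, 24.7, 15.7 and 10.3 CPM in vehicle and 6.91, 7.17, 9.54 and 9.09 CPM in colchicine libraries, again without overlap (-1.20 ± 0.29, adjusted p = 0.0147). Rrm2, the regulated subunit of ribonucleotide reductase, was at 11.0, 23.8, 17.3 and 2.46 CPM in vehicle and 5.49, 4.82, 8.21 and 9.86 CPM in colchicine libraries. Vehicle 4 was the lowest of the 8 for Rrm2, and the difference did not pass (-0.94 ± 0.56, adjusted p = 0.21). Tk1, thymidine kinase, had the largest estimate in the S-phase list (-1.40 ± 0.72) without passing (adjusted p = 0.155), and Rrm1, the large reductase subunit, was at -0.53 ± 0.29 (adjusted p = 0.185).

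The E-type cyclins, which drive entry into S phase, had estimates of opposite sign. Ccne2 was at 1.83, 2.74, 3.58 and 2.40 CPM in vehicle and 4.25, 4.07, 5.05 and 6.03 CPM in colchicine libraries, every colchicine library being higher, and rose by 0.87 ± 0.26 on the log2 scale (adjusted p = 0.0333). That call did not hold without TMM scaling (adjusted p = 0.0608), on log2(TPM + 1) values (0.0527), after trends on transcript length and GC content were taken out (0.44, adjusted p = 0.321), or in 7 of the 8 fits without 1 library. Ccne1 was at 5.65, 10.8, 4.37 and 2.52 CPM against 1.47, 0.80, 3.83 and 3.01 CPM, with overlap through vehicle 4 (-1.35 ± 0.56, adjusted p = 0.088). E2f1, an activating E2F factor, was at 9.61, 23.4, 13.2 and 6.52 CPM against 4.64, 6.94, 9.38 and 10.5 CPM and did not pass (-0.74 ± 0.40, adjusted p = 0.174).

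The 5 S-phase calls depended on scale and on single libraries. On log2(TPM + 1) values with limma-trend, where all genes moved up by a median of 0.35 6.56% of genes fell and 17.8% rose, 0 of the 17 passed (1 lower and 2 higher at an unadjusted p under 0.05). Their median was -0.36, or -0.71 relative to all genes, and Cdt1 came nearest to a call among the 5 (-0.86, adjusted p = 0.0802). Without colchicine 1 the count of fallen S-phase genes was 3 (10.6% of all genes fell and 6.81% rose) and without colchicine 2 it was 2, Cdt1 and Tyms (9.59% fell and 6.58% rose), so that calls over all genes dropped there too, while without vehicle 4 it was 11 (19.4% of all genes fell in that fit and 17.8% rose). All 5 passed with limma-voom, with DESeq2 (8 S-phase genes and 20.8% of all genes fell, 18.3% of all genes rose), and after taking out trends on transcript length and GC content (14.5% fell, 14.3% rose).

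**Figure D2:**
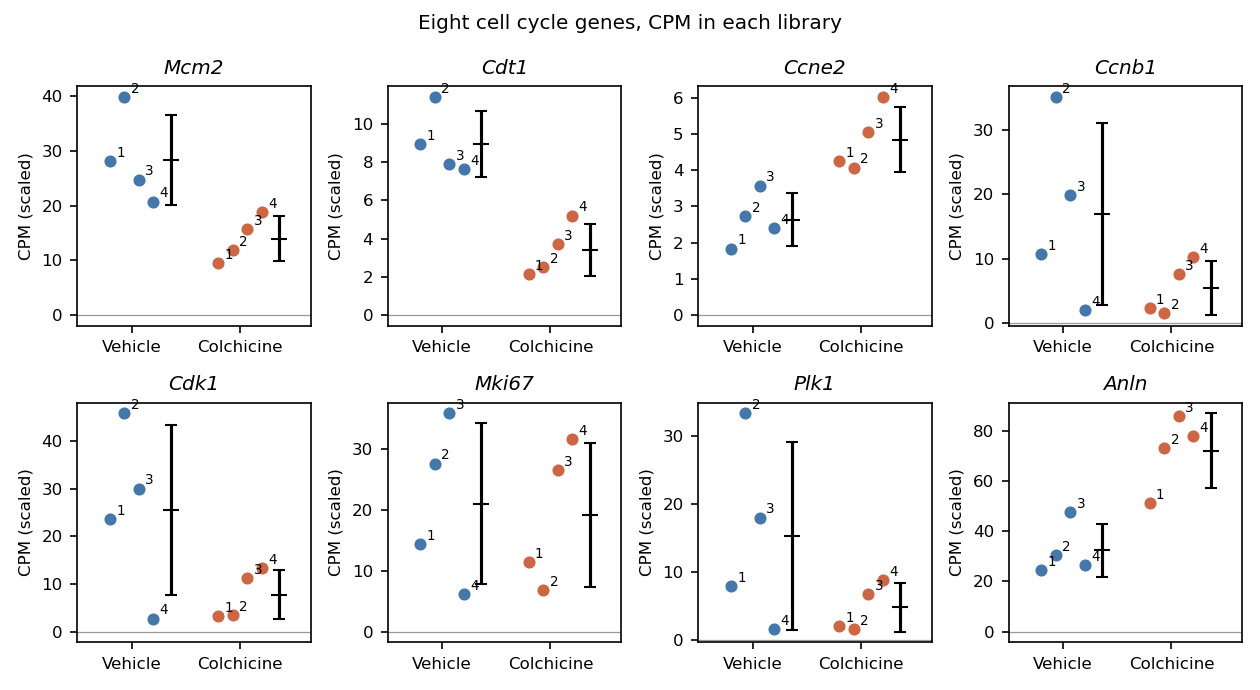
CPM of 8 cell cycle genes in each library (points, vertical axis; bars, group mean and SD, n = 4). Mcm2 and Cdt1 show no overlap between the groups, whereas vehicle 4 lies with or below the colchicine libraries for Ccnb1 (2.03 CPM) and Cdk1 (2.70 CPM).

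With 1 exception, no gene of G2 and mitosis passed the test as higher in the colchicine libraries. Of the 29, 1 rose (Anln), 0 fell and 28 did not pass the edgeR test, where 17.4% and 17.0% of all genes rose and fell. Estimates were below 0 for 27 of the 29, from -1.72 for Cdk1 to 1.15 for Anln, with a median of -1.05 against -0.03 over all genes. At an unadjusted p under 0.05, 4 were lower (Cdk1, Ube2c, Aurka and Espl1) and 1 was higher. With limma-voom 0 were called lower, where 4296 genes were called in all, 57.3% of them raised. DESeq2 called 6 lower (Aurka, Birc5, Cdca3, Cdk1, Espl1 and Ube2c), where it called 20.8% of all genes lower. The groups did not overlap for 1 G2/M gene, Anln, which was higher (21.1% of all genes), and for 0 that were lower (17.9%). In bulk tissue, fewer dividing cells and less of these RNAs in each dividing cell cannot be told apart.

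The count of 0 depended on vehicle 4 and also on the test, since DESeq2 called 6 lower with all 8 libraries. Without vehicle 4, 14 of the 29 fell, where 19.4% of all genes did. That library was the lowest of the vehicle group for 28 of the 29, so leaving it out raises the vehicle mean of these genes. In each of the 7 fits that left out another single library 0 of the 29 fell, where 1309 to 2642 of all genes did. Without both haemoglobin-rich libraries, vehicle 1 and 4, 17 fell (20.3% of all genes) and 1 rose (20.2%).

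Cdk1 and cyclin B1 form the kinase that drives entry into mitosis. Cdk1 (chromosome 10, 69335146 to 69352938) was at 23.7, 45.8, 30.0 and 2.70 CPM in vehicle and 3.17, 3.44, 11.2 and 13.3 CPM in colchicine libraries. Vehicle 1 to 3 were above all colchicine libraries and vehicle 4 below all of them. The log2 difference was -1.72 ± 0.76 (adjusted p = 0.105). It was -2.10 without vehicle 4 (adjusted p = 0.0184), the only fit without a single library in which Cdk1 passed.

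Ccnb1 (chromosome 13, 100778650 to 100786570) was at 10.7, 35.1, 19.8 and 2.03 CPM in vehicle and 2.38, 1.55, 7.66 and 10.3 CPM in colchicine libraries. Its pattern was that of Cdk1, except that colchicine 2 lay below vehicle 4 (-1.63 ± 0.82, adjusted p = 0.146). Of the fits without a single library, Ccnb1 passed only in that without vehicle 4 (-2.01, adjusted p = 0.0443). Ccnb2, the second B-type cyclin, differed by -1.48 ± 0.74 (adjusted p = 0.144), and Ccna2, the cyclin of S phase and G2, by -1.05 ± 0.74 (adjusted p = 0.287).

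Plk1 and the Aurora kinases build the spindle and correct its attachments. Plk1 was at 8, 33.4, 18.0 and 1.66 CPM in vehicle and 2.10, 1.61, 6.77 and 8.88 CPM in colchicine libraries (-1.66 ± 0.83, adjusted p = 0.147). Aurkb, of the chromosomal passenger complex, was at 5.43, 15, 10.3 and 1.29 CPM against 1.70, 1.61, 4 and 6.46 CPM (-1.22 ± 0.70, adjusted p = 0.196). In both genes the vehicle libraries spanned nearly the whole colchicine range, since vehicle 2 was highest and vehicle 4 was lowest or next to lowest. The passenger subunits Birc5 and Cdca8 had estimates of -1.65 ± 0.74 and -1.40 ± 0.70, and Aurka one of -1.67 ± 0.71, with adjusted p-values of 0.0941 to 0.146.

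The spindle checkpoint holds back Cdc20, which activates the anaphase-promoting complex. Cdc20 was at 12.0, 34.5, 26.6 and 3.56 CPM in vehicle and 3.17, 3.21, 9.77 and 12.7 CPM in colchicine libraries (-1.41 ± 0.69, adjusted p = 0.138). Mad2l1, the checkpoint protein that binds Cdc20, was at 15, 21.7, 16.6 and 4.43 CPM against 7.93, 6.31, 11.6 and 13.5 CPM (-0.55 ± 0.44, adjusted p = 0.338). Vehicle 1 to 3 were above, and vehicle 4 below, all colchicine libraries for Mad2l1. The checkpoint kinases Bub1, Bub1b and Ttk had estimates of -0.99, -1.05 and -0.63, none past the test. Ube2c, the ubiquitin-conjugating enzyme of the anaphase-promoting complex, came nearest to a fall (-1.58 ± 0.56, adjusted p = 0.0558), from 24.6 ± 12.9 to 8.22 ± 5.05 CPM. Espl1 (separase), which cleaves cohesin at anaphase, was at -1.25 ± 0.53 (adjusted p = 0.0941).

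Mki67, the proliferation marker that coats mitotic chromosomes, was at 14.5, 27.7, 35.9 and 6.15 CPM in vehicle and 11.4, 6.89, 26.6 and 31.7 CPM in colchicine libraries. The groups overlapped over nearly their whole range, and the difference was -0.14 ± 0.59 (adjusted p = 0.867). Top2a, the topoisomerase that disentangles sister chromatids, was at 16.5, 32.8, 38.3 and 4.12 CPM against 8.95, 7.29, 23.9 and 26.5 CPM (-0.46 ± 0.65, adjusted p = 0.592). Both estimates changed sign on log2(TPM + 1) values, to 0.26 and 0.06, below the median of 0.35 over all genes on that scale. Cenpf and Cenpe, large kinetochore proteins, and Nusap1, which bundles microtubules, had estimates of -0.19, -0.48 and -0.39, and the condensin subunit Smc2 was at 0.14 ± 0.27 (adjusted p = 0.694). The other condensin subunits listed, Ncapg and Ncapd2, were at -0.66 and -1.05.

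Anln was the G2/M gene that rose. It encodes anillin, the actin-binding scaffold of the cleavage furrow (chromosome 9, 22332012 to 22389188). Its level was 24.6, 30.6, 47.7 and 26.6 CPM in vehicle and 51.1, 73.3, 86.0 and 78.0 CPM in colchicine libraries, so that every colchicine library was higher and vehicle 4 was not the lowest. The log2 fold change of 1.15 ± 0.24 (adjusted p = 0.0098) passed in every fit, at 0.89 to 1.52. Ect2, which sets the position of the same furrow, was at -0.46 ± 0.54 (adjusted p = 0.523), and Prc1, which bundles the central spindle, at -0.73 ± 0.76 (adjusted p = 0.471).

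**Figure D3:**
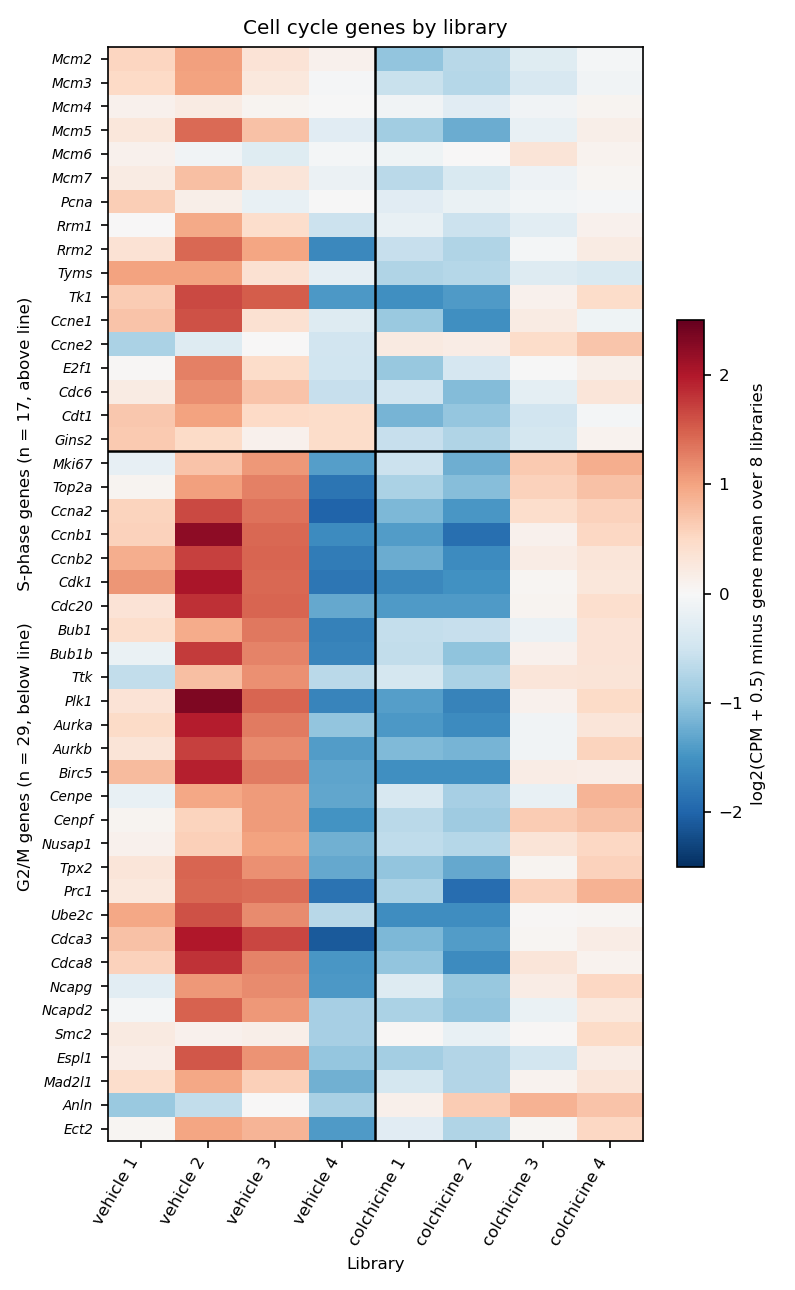
Level of each of the 46 genes in each library as log2(CPM + 0.5) minus the mean of that gene over 8 libraries (colour; rows, genes; columns, libraries). In the G2/M block vehicle 2 and 3 are high, vehicle 4 is low, and colchicine 3 and 4 lie above colchicine 1 and 2.

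Within each treatment the G2/M genes had much of the order of libraries in common. Vehicle 2 or vehicle 3 was the highest of the 8 for 27 of 29 G2/M genes (93.1%, against 26.3% of all tested genes), with vehicle 2 highest for 19 and vehicle 3 for 8. Vehicle 4 was the lowest vehicle library for 28 of 29 (96.6%, against 24.8%) and the lowest of all 8 for 18. Colchicine 3 and 4 were both above colchicine 1 and 2 for 29 of 29 (100%, against 18.3%). The same 3 orders held for 12, 13 and 15 of the 17 S-phase genes. All 4 colchicine libraries were below vehicle 1, 2 and 3 for 10 of the 29 G2/M and 10 of the 17 S-phase genes, and for 23.9% of all tested genes. These orders were seen in the values first, and the shares describe the 8 libraries.

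The spread between libraries was wider in G2/M than in S-phase genes. The ratio of the highest to the lowest vehicle library had a median of 9.46 over G2/M genes and 2.06 over S-phase genes, and was 3.90 and 1.83 among colchicine libraries. The median SD of log2 CPM was 1.45 in vehicle and 0.93 in colchicine libraries for G2/M genes, 0.44 and 0.37 for S-phase genes, and 0.39 and 0.18 over all genes (n = 4 each). Per length, the median level over members was 12.2 TPM in S phase and 8.55 TPM in G2/M, from 0.961 TPM for Cenpe to 86.5 TPM for Pcna.

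**Figure D4:**
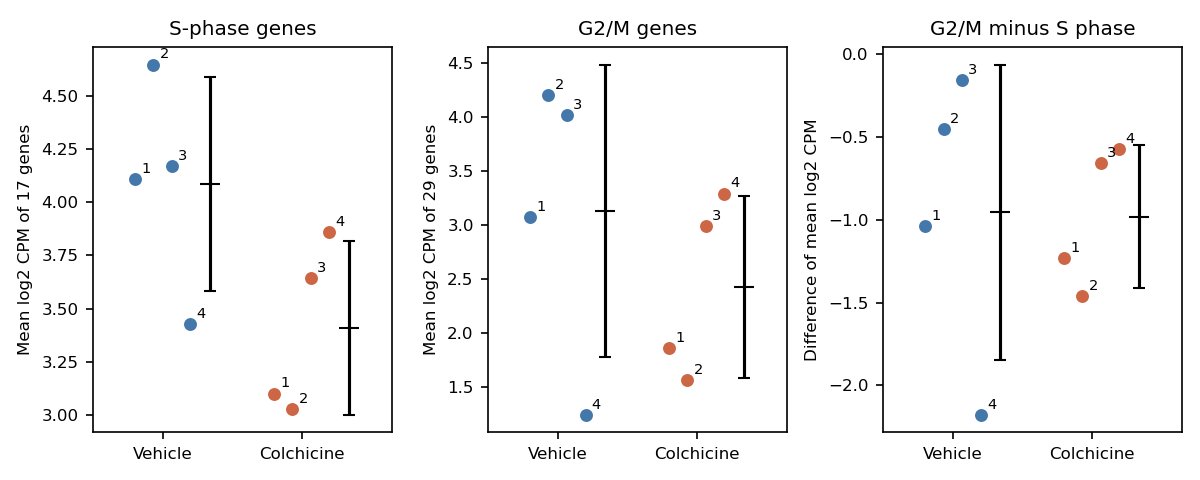
Mean log2 CPM over the 17 S-phase genes, over the 29 G2/M genes, and their difference (vertical axes) in each library (points; bars, mean and SD, n = 4). The difference of G2/M minus S phase spans -2.18 to -0.16 in vehicle and -1.46 to -0.57 in colchicine libraries.

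The level of G2/M genes relative to S-phase genes had nearly the same mean in both groups, a result that rested on vehicle 4. The mean log2 CPM over the S-phase genes was 4.11, 4.65, 4.17 and 3.43 in vehicle 1 to 4 and 3.10, 3.03, 3.64 and 3.86 in colchicine 1 to 4. The mean over the G2/M genes was 3.07, 4.20, 4.01 and 1.25 against 1.87, 1.57, 2.99 and 3.29. Subtracting the first from the second gave -1.04, -0.45, -0.16 and -2.18 in vehicle and -1.23, -1.46, -0.66 and -0.57 in colchicine libraries. The group means were -0.96 ± 0.89 and -0.98 ± 0.43 (SD, n = 4 each), with the colchicine libraries inside the vehicle range. On the TPM scale they were -0.93 ± 0.61 and -1.01 ± 0.31. Without vehicle 4 the vehicle mean was -0.55 ± 0.45 (SD, n = 3), above that of the colchicine libraries, and -0.65 ± 0.31 on the TPM scale.

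Within the G2/M genes, Ccnb1, Cdc20, Plk1, Cdk1 and Top2a were set against Mki67 after their values were seen, as a description with no test. The other G2/M genes were not set against Mki67, and not all would differ from it: Cenpf had an estimate of -0.19, near the -0.14 of Mki67. Log2 CPM of Ccnb1 minus that of Mki67 was -0.43, 0.34, -0.85 and -1.55 in vehicle and -2.21, -2.07, -1.78 and -1.61 in colchicine libraries, lower in each colchicine library. For Cdc20 minus Mki67 the values were -0.26, 0.32, -0.43 and -0.77 against -1.81, -1.07, -1.44 and -1.32. These differences lay lower in every colchicine library for Cdc20 too. For Plk1 minus Mki67 they were -0.84, 0.27, -0.99 and -1.82 against -2.39, -2.02, -1.96 and -1.82, where vehicle 4 and colchicine 4 all but met. For Cdk1 minus Mki67 they were 0.71, 0.73, -0.26 and -1.15 against -1.81, -0.98, -1.24 and -1.25, and vehicle 4 overlapped the colchicine libraries. For Top2a minus Mki67 the group means were -0.01 ± 0.38 and -0.17 ± 0.19 (SD, n = 4 each).

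Transcript length moved with these differences in part. The longest annotated transcript has 10061 bases for Mki67, 2489 for Ccnb1, 2199 for Plk1 and 1793 for Cdc20. Cdk1, with the lowest estimate of the G2/M genes (-1.72), has 4375 bases, and Espl1 (-1.25) has 6658. The longest transcript need not be the one expressed. In vehicle libraries the means were 25.6 CPM and 35.9 TPM for Cdk1, and 19.2 CPM and 21.0 TPM for Cdc20. The deposited TPM values thus took Cdk1 as shorter than Cdc20, whereas the length groups and trends below use the longest transcript. Over all tested genes the median log2 fold change was -0.31 in the shortest of 3 equal groups by length (up to 2676 bases), -0.02 in the middle and 0.29 in the longest group (4325 bases or more). Over G2/M genes in the same length groups it was -1.61 (n = 8), -0.86 (n = 10) and -0.48 (n = 11). After per-library trends on length and GC content were taken out, Mki67 was at -0.69 and Ccnb1 at -1.66, and the median over G2/M genes was -1.07. Again Anln rose (0.91, adjusted p = 0.0293) and 0 fell, where 14.3% of all genes rose and 14.5% fell. The part of length in the differences between single genes was not tested further.

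Markers of other cells also moved with the groups, where 17.0% of all genes fell and 17.4% rose. All 9 leukocyte markers fell, and their sum was 1490 to 3901 CPM in vehicle and 408 to 793 CPM in colchicine libraries. Erythroid markers summed to 197476 and 59496 CPM in vehicle 1 and 4, against 389 to 3099 CPM in the other libraries, and 5 of 6 tested fell. Neutrophil markers summed to 2681, 17.2, 11.6 and 636 CPM in vehicle and 3.23 to 5.62 CPM in colchicine libraries (3 of 4 tested fell, and Mpo and Elane, of their precursors, reached at most 0.23 CPM). All 3 tested B cell markers fell, from sums of 4.89 to 42.1 CPM to 0.344 to 2.52 CPM. Of the smooth muscle markers 3 of 7 rose. Of 5 endothelial markers, Vwf (1.18 ± 0.29, adjusted p = 0.0155) and Pecam1 (0.95 ± 0.24, adjusted p = 0.0176) rose, and Kdr (-2.82 ± 0.34, adjusted p = 0.00388) and Cdh5 (-0.83 ± 0.23, adjusted p = 0.0256) fell.

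Marker sums also differed within the vehicle group. Leukocyte markers summed to 3805, 3901, 1490 and 2090 CPM in vehicle 1 to 4. The sum of 6 fibroblast markers, none of which passed the test, was 9469, 38170, 15808 and 3679 CPM in vehicle 1 to 4, the same order as the G2/M level, and 9188, 9894, 11470 and 11241 CPM in colchicine 1 to 4. That order came from Col1a1: the other 5 fibroblast markers summed to 3311, 2623, 3200 and 1153 CPM in vehicle 1 to 4 and to 2333 to 2855 CPM in colchicine libraries. Brown adipocyte markers summed to 252 CPM in vehicle 4 and to 15.4 to 73.3 CPM elsewhere. Thymocyte markers, from an organ that lies near the aorta and holds many dividing cells, summed to 28.0 CPM in colchicine 3 and to 0.877 to 9.16 CPM elsewhere. The part of these cell types in the cell cycle values was not tested.

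**Figure D5:**
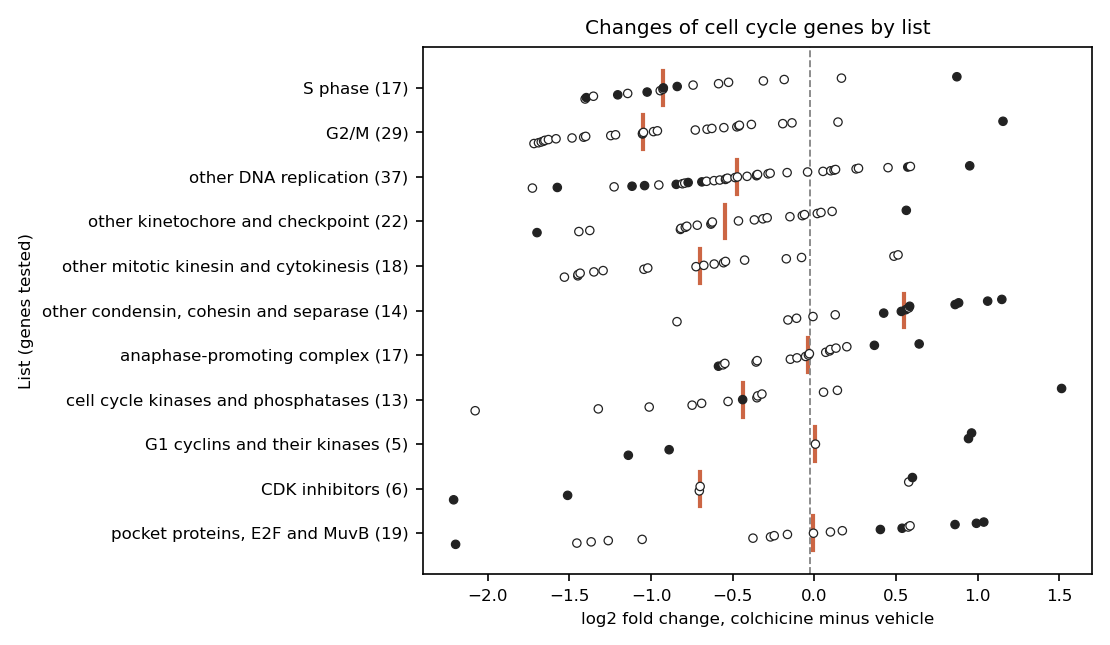
Log2 fold change (colchicine minus vehicle, horizontal axis) of every tested gene in each list of cell cycle genes (points; bar, list median; dashed line, median of all genes). The S-phase and G2/M members have medians of -0.93 and -1.05, and the cohesin and condensin list has one of 0.55.

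Other genes of the cell cycle, taken from lists of 153 genes outside the 46, did not pass the test at a higher share than all genes. Of 151 tested, 22 rose (14.6%, against 17.4% of all genes) and 14 fell (9.27%, against 17.0%), with a median of -0.35. In DNA replication 2 of 37 rose (5.41%) and 6 fell (16.2%, near the share of all genes), with a median of -0.47. Those that fell included Uhrf1, which recruits the maintenance DNA methyltransferase (-1.57 ± 0.46, adjusted p = 0.0287), Fen1, the flap endonuclease of lagging-strand synthesis (-1.12 ± 0.32, adjusted p = 0.0287), and Gins1, a partner of Gins2 (-1.04 ± 0.33, adjusted p = 0.039). Over the 19 alternative fits, these calls were kept in 14 for Uhrf1, 11 for Fen1 and 8 for Gins1, and Fen1 and Gins1 did not pass with trends on length and GC content taken out (adjusted p = 0.0625 and 0.171).

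Few of the further mitotic genes passed, where 17.0% of all genes fell and 17.4% rose. Of 22 further kinetochore and checkpoint genes, Cenpa, the centromeric histone, fell (-1.70 ± 0.58, adjusted p = 0.0477) and Ska2, of the complex that couples kinetochores to microtubules, rose (0.56 ± 0.17, adjusted p = 0.033). Of the 19 alternative fits, 5 kept the call of Cenpa, which did not pass with limma-voom, and 9 that of Ska2, and neither passed with trends on length and GC content taken out (adjusted p = 0.0545 and 0.262). Of 18 mitotic kinesin and cytokinesis genes 0 passed (median -0.70), with 1 at an unadjusted p under 0.05, 1 fallen with DESeq2 and 0 with limma-voom. The smallest p-values there belonged to Cit, a kinase of the midbody (-1.53 ± 0.66, adjusted p = 0.0998), and Plk4, which starts centriole copying (0.51 ± 0.26, adjusted p = 0.145). Without vehicle 4 the kinetochore list had 4 falls of 23 and the kinesin and cytokinesis list 1 of 18, where 19.4% of all genes fell. Without vehicle 1 and 4 these lists had 6 of 23 and 7 of 18, where 20.3% of all genes fell.

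In the list of other condensin, cohesin and separase genes 8 of 14 rose (57.1%, against 17.4% of all genes) and 0 fell (median 0.55). Of the 8, 7 were genes of cohesin or its regulators and 1, Smc4, a condensin gene. In the lower direction 0 were at an unadjusted p under 0.05 and 0 fell with DESeq2 or limma-voom. The largest rises were those of Stag2 (1.15 ± 0.30, adjusted p = 0.0204), Pds5b (1.06 ± 0.19, adjusted p = 0.00693) and Stag1 (0.88 ± 0.18, adjusted p = 0.00856), which encode cohesin and cohesin-regulating subunits that also act in cells that do not divide. After trends on length and GC content were taken out, Pds5b and Stag1 passed (0.38 and 0.35, adjusted p = 0.0306 and 0.0384). The other 6 did not, so that 2 of 14 rose where 14.3% of all genes did. Likewise 2 passed without colchicine 1, where 6.81% of all genes rose, and 2 without colchicine 2, where 6.58% rose.

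Within the anaphase-promoting complex 2 of 17 genes rose (11.8%, against 17.4% of all genes) and 1 fell (5.88%, against 17.0%), with a median of -0.04. The core subunit genes Cdc27 (0.64 ± 0.13, adjusted p = 0.00812) and Anapc4 (0.37 ± 0.11, adjusted p = 0.0334) rose, and Fzr1, the activator used after mitosis, fell (-0.59 ± 0.19, adjusted p = 0.0391). Once trends on length and GC content were removed, none of the 3 passed, Cdc27 being at 0.06. Anapc4 and Fzr1 each kept their call in 8 of the 19 alternative fits and Cdc27 in 18.

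Of the G1 cyclins and their kinases, 2 of 5 rose (40.0%, against 17.4% of all genes) and 2 fell (40.0%, against 17.0%). Ccnd1, cyclin D1, had 61 ± 20.5 CPM in vehicle against 27.7 ± 9.51 CPM under colchicine and fell by 1.14 ± 0.31 on the log2 scale (adjusted p = 0.0229). Ccnd2, cyclin D2, was at 92.5, 108, 132 and 123 CPM in vehicle and 206, 233, 217 and 231 CPM in colchicine libraries and rose by 0.96 ± 0.15 (adjusted p = 0.0048). The groups of Ccnd2 did not overlap, and those of Ccnd1 did, through vehicle 4 and colchicine 4. Of their partner kinases, Cdk6 rose by 0.94 ± 0.14 (adjusted p = 0.0048) and Cdk4 fell by 0.89 ± 0.19 (adjusted p = 0.00988). With trends on length and GC content taken out Cdk6 no longer passed (0.22, adjusted p = 0.381), whereas Ccnd1 (-1.05, 0.029) and Ccnd2 (0.63, 0.00909) did. Ccnd2 passed in all 19 alternative fits and Ccnd1 in 14. Ccnd1 lost its call on TPM values, with the replicate number as a block and without colchicine 1, 2 or 3.

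Of 6 tested inhibitors of the cyclin-dependent kinases, 2 fell (33.3%, against 17.0% of all genes) and 1 rose (16.7%, against 17.4%). Cdkn1a (p21), which p53 induces, was at 240, 108, 105 and 115 CPM in vehicle and 40.1, 47.1, 63.8 and 48.1 CPM in colchicine libraries, all colchicine libraries being lower (-1.51 ± 0.30, adjusted p = 0.00796). Cdkn2b (p15) fell by 2.21 ± 0.56 (adjusted p = 0.0181) and Cdkn1b (p27) rose by 0.60 ± 0.17 (adjusted p = 0.026). Cdkn1a passed in all 19 alternative fits, Cdkn2b in 14 and Cdkn1b in 9, the last not with trends on length and GC content taken out (0.26, adjusted p = 0.14).

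Wee1, the kinase that holds Cdk1 inactive before mitosis, was at 7.71, 20.4, 20.8 and 22.0 CPM in vehicle and 71.2, 38.8, 45.9 and 46.8 CPM in colchicine libraries. Every colchicine library was higher and the log2 fold change was 1.51 ± 0.33 (adjusted p = 0.0107; 1.60 and 0.0123 with trends on length and GC content taken out). Wee1 is also a target of the circadian clock in mouse liver. Cdc25b, a phosphatase that releases Cdk1 from this hold, fell by 0.44 ± 0.14 (adjusted p = 0.0372), a call kept in 7 of 19 alternative fits and not with those trends taken out (-0.22, adjusted p = 0.17). Wee1 passed in all 19, and the other 11 kinase and phosphatase genes did not pass. In this list 7.69% rose and 7.69% fell, against 17.4% and 17.0% of all genes.

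Among pocket proteins, E2F factors and MuvB subunits 5 of 19 rose (26.3%, against 17.4% of all genes) and 1 fell (5.26%, against 17.0%). The median was -0.01. E2f2, an activating E2F, was at 10.9, 7.68, 7.05 and 8.85 CPM in vehicle and 0.51, 1.84, 2.61 and 2.52 CPM in colchicine libraries. Each colchicine value was lower than each vehicle value (-2.20 ± 0.43, adjusted p = 0.00812). The genes that rose included Rbl2 (p130), a pocket protein that represses cell cycle genes in resting cells (0.99 ± 0.21, adjusted p = 0.00932), and Tfdp2, a partner of E2F (1.04 ± 0.22, adjusted p = 0.0101). Rb1, E2f6 and Lin54 also rose. Rb1 kept its call in every alternative fit, whereas E2f6 lost it in every fit without a single library. Lin54 kept it among those fits only without colchicine 3, and lost it with limma-voom and with RLE factors.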

How the data were processed

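Aorta RNA of 4 vehicle and 4 colchicine libraries was sequenced from libraries made with a SMARTer mRNA kit, per the labels' protocols. Per the file headers, the authors deposited for each Ensembl gene and library an estimated count and a TPM value, which is scaled for gene length. The submitters' processing notes name the build mm10; which aligner, counter, annotation and strand setting they used is not given in the sources used, so reads of overlapping, antisense or near-identical genes may have been split in ways that cannot be checked. Of counts above 0, 12.3% were not whole (tolerance 1e-06), and all were rounded for testing. Genes with no symbol (30) held 5.89e-05% of all counts, and 4498 genes had none.

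Genes were filtered with filterByExpr in edgeR 4.0.16 (R 4.3.3), which left 13431, and totals of 15.4 to 18.5 M counts were scaled by TMM (factors 0.762 in vehicle 1 and 0.987 to 1.08 elsewhere). Colchicine was compared with vehicle by the two-sided edgeR quasi-likelihood test with no covariate, with Benjamini-Hochberg adjustment over all tested genes and a threshold of 0.05. The SE is the absolute log2 fold change divided by the square root of F. Mean log2 CPM used a prior count of 2. The test was tried on simulated counts first. Alternatives were no TMM or RLE factors, other totals and filters, DESeq2 1.42.0, limma-voom and limma-trend (limma 3.58.1, the latter on log2(TPM + 1) where the mean reached 1 TPM), a replicate block and libraries left out. Offsets for transcript length and GC content (longest GENCODE M21 transcript, found for 13414 genes; lowess trend of each library, centred) were added after seeing the data.

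The members and lists were chosen with earlier results of these data known. Named are members past the threshold, 14 members fixed by name, up to 3 genes per other list with the largest change past the threshold (or the 2 with the smallest p) and genes named after their values were seen: Cdk4, Rb1, E2f6, Lin54, Smc4, Pecam1, Cdh5 and members given to complete a complex. Positions are GRCm38 (GENCODE M21).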

Additional observations from a re-analysis of the deposited data

How the results depend on the processing

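Over the named members, 311 of the 361 alternative values kept their direction and side of the threshold, 26 lost and 17 gained a call, and 7 changed sign. Without TMM factors 0 S-phase genes rose, and so too with length and GC offsets. DESeq2 called 8 S-phase and 6 G2/M genes lower. On log2(TPM + 1) values, 863 genes fell and 73.1% of calls were rises against 50.7%. On that scale 0 S-phase genes rose and 0 fell, and the S-phase median was -0.36 against 0.35 over all genes. Mki67 (0.26), Pcna (0.13) and Top2a (0.0563) changed sign there. Library totals without haemoglobin and mitochondrial genes gave 42.9% rises. Without vehicle 1 and 4, 11 S-phase genes fell and 0 rose, and 17 G2/M genes fell. The cause was not tested.

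Leaving out 1 library at a time gave 2207 to 5058 genes called, 898 to 2420 raised and 1309 to 2642 lowered. S-phase genes raised ranged from 0 to 1 and lowered from 2 to 11, G2/M genes lowered from 0 to 14 and raised was 1 throughout. Medians ran from -1.08 to -0.59 (S phase) and -1.39 to -0.64 (G2/M). Mki67 ran from -0.50 to 0.24, above 0 without vehicle 2 (0.02), vehicle 3 (0.24), colchicine 1 (0.04) or colchicine 2 (0.13). A fit with the replicate number as a block called 2305 genes (1121 raised, 8.35%; 1184 lowered, 8.82%), with 0 S-phase genes raised and 2 lowered (Cdt1 and Gins2). Deviations of same-numbered libraries correlated at -0.25 to 0.03, and those of differently numbered libraries at -0.21 to 0.23. The labels do not say whether the numbers pair animals or batches, and these values cannot tell. Genes at a few CPM, such as Ttk and Bub1, are limited by counting error as well as by the spread between libraries.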
